A study of Mus musculus with 2 samples.

Results

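Of 43346 mouse genes measured in skeletal muscle of newborn mice, 8 were followed here, with 24 of 103639 transcript models. They are the genes of the myosin-binding proteins C (Mybpc1, Mybpc2, Mybpc3), of myosin-binding protein H and its relative (Mybph, Mybphl), and of the 3 myomesins of the M-band (Myom1, Myom2, Myom3). They were chosen by name as 2 protein families of the thick filament, with earlier results of these data known, and were found in the tables by Ensembl gene ID. The tissue came from B6NCrl mice at postnatal day 0, as 2 pups that the labels place in 1 pregnancy, with no transgene, deletion or treatment named. The labels share 1 donor entry between the pups, record no sex and do not say which muscle was dissected. There was thus 1 group with n = 2 and no comparison of conditions, and if the samples are not separate animals the SD given with each mean is technical. No test was run: a two-sided exact sign-flip permutation test over 2 pups gives no p below 0.5, and pup 2 against pup 1 leaves no residual degree of freedom. Differences between genes are set against the spread between the pups.

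Myosin-binding protein C lies in regular stripes across part of the A-band, where it binds the myosin filament and titin at its C-terminal end and reaches towards actin and the myosin heads at its N-terminal end. Separate genes encode the slow skeletal, fast skeletal and cardiac forms, and myosin-binding protein H is a shorter protein of the same immunoglobulin and fibronectin domain family. Myomesins are elongated proteins of the same kinds of domains that cross-link neighbouring myosin filaments at the M-band, in the middle of the A-band, and bind titin there.

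Newborn muscle held RNA for the slow and fast skeletal forms of myosin-binding protein C, for myosin-binding protein H and for all 3 myomesins. It held next to none for the cardiac form or for Mybphl. The level of 6 of the 8 genes was above 1 TPM, the length-corrected unit of the tables, a level that 12495 protein-coding genes reached. Mybpc1, the slow skeletal form, led by far at 2215 ± 125 TPM (SD, n = 2) and ranked 38 among protein-coding genes. Mybpc2, Mybph and Myom2 followed at close to equal levels, with means of 244, 236 and 234 TPM, and their ranges over the pups overlapped. Myom1 stood 2.10-fold below Myom2, Myom3 7.58-fold below Myom1, and Mybpc3 40.3-fold below Myom3, each without overlap of the pups' values. In bulk tissue, fewer cells of a type and less RNA per cell cannot be told apart.

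**Figure D1:**
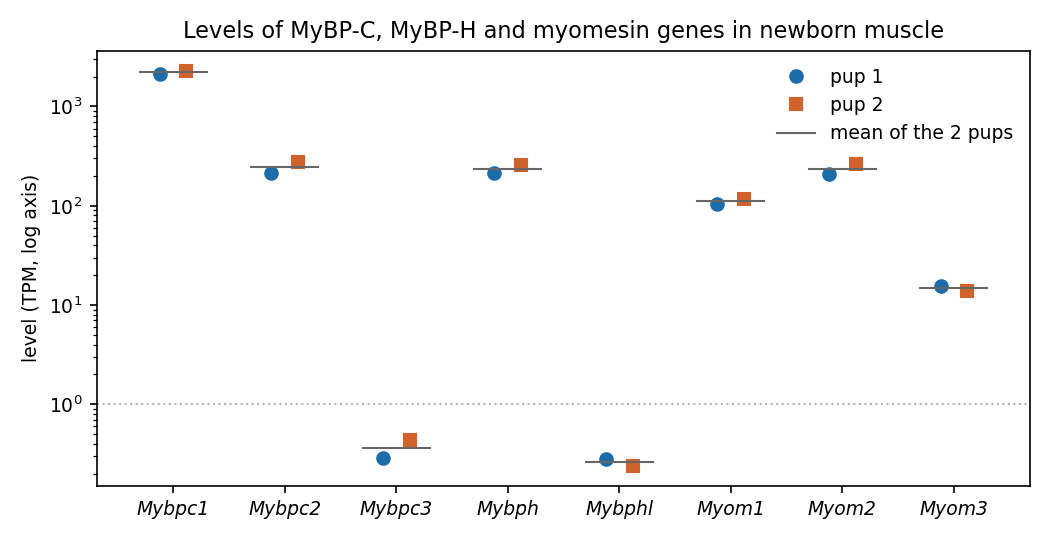
Level of each of the 8 genes in TPM on a log axis, with a circle for pup 1, a square for pup 2 and a line at their mean; the dotted line marks 1 TPM. Mybpc1 lies at 2127 and 2303 TPM, Mybpc3 and Mybphl lie below the dotted line in both pups, and the other 5 genes lie between.

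The exon choices of Mybpc1 and Myom1 decide which forms of the protein the RNA encodes, so their sequences are shown before the values. Each run is read 5′ to 3′ along the transcript from the GENCODE M21 transcripts (mm10), with the alternative exon in capitals and the neighbouring coding bases in lower case. The Mybpc1 exons shown lie on the minus strand of chromosome 10: 42 bases near the 5′ end at chr10:88582007-88582048, 54 bases in the middle at chr10:88537466-88537519, and 59 bases near the 3′ end at chr10:88521277-88521335. Another alternative exon, of 43 bases at chr10:88519901-88519943, holds 3 coding bases in Mybpc1-201 and more in Mybpc1-202, and is not shown as a run. It took 99.6% and 99.5% of the TPM of the protein-coding models across it in pups 1 and 2. The run of the joined neighbours follows the 42-base and 54-base exons, and shows the form without the exon.
Mybpc1 42-base exon in: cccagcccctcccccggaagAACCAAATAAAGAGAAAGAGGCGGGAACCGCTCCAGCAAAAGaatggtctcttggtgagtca
Mybpc1 42-base exon out: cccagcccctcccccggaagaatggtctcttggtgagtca
Mybpc1 54-base exon in: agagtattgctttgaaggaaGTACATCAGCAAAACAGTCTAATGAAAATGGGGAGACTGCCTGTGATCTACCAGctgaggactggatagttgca
Mybpc1 54-base exon out: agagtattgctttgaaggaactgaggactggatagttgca
Mybpc1 59-base exon in: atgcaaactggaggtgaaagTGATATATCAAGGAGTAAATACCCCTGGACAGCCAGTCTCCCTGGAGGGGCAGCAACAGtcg
The Myom1 exons lie on the plus strand of chromosome 17. An exon of 294 bases at chr17:71082203-71082496 is included in a minor model, and 2 exons of 23 bases, at chr17:71120794-71120816 and chr17:71121126-71121148, replace each other near the 3′ end.
Myom1 294-base exon in: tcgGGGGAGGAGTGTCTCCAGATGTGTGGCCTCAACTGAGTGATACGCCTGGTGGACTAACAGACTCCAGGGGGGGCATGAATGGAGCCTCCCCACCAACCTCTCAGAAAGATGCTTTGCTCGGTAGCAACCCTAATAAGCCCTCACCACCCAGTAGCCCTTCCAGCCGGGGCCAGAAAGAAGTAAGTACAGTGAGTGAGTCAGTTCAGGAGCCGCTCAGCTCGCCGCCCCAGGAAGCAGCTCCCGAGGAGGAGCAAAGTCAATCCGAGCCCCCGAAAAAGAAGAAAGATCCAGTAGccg
Myom1 294-base exon out: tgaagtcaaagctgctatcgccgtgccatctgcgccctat
Myom1 upstream 23-base exon: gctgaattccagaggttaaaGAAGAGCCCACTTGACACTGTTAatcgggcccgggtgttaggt
Myom1 downstream 23-base exon: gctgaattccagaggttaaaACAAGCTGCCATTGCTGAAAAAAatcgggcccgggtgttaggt

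Mybpc1 (ENSMUSG00000020061.13, chromosome 10, 88518279 to 88605152, minus strand, GENCODE M21 positions as for all genes here) encodes the slow form, which fast fibres of skeletal muscle also carry. Its level was 2127 TPM in pup 1 and 2303 TPM in pup 2, from 198584 and 201631 expected counts (reads, with those that fit several models split between them). It took 0.491% and 0.543% of all counts of the pups. Mybpc1 supplied 90.8% and 89.4% of the summed TPM of the 3 myosin-binding protein C genes. Among the sarcomere genes listed for the purpose, the 2 nearest in level were Actn2, the Z-disc crosslinker alpha-actinin 2, at 2035 ± 49.8 TPM, and Neb, the thin filament ruler nebulin, at 1714 ± 117 TPM. This closeness is of level alone, since 2 samples of 1 condition give no pattern across conditions. In counts Neb stood well below Mybpc1, at 102106 and 119193 in pups 1 and 2. The lengths of the Neb models behind its TPM were not examined.

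The 6 Mybpc1 models shared the gene's TPM unevenly and alike in both pups. Mybpc1-202, of 3922 nt, took 56.65% and 54.75% of the TPM in pups 1 and 2, and Mybpc1-201, of 3752 nt, took 19.01% and 19.96%. Mybpc1-206, a partial model of 1876 nt that is annotated as protein-coding, took 10.68% and 11.04%. Mybpc1-203, a 600-nt model annotated as a retained intron, took 12.2% and 12.37%, but only 1.96% and 2.00% of the gene's counts, because TPM divides counts by length. In counts, Mybpc1-202 took 69.3% and 67.6% of the gene. Restricted to models annotated as protein-coding, the level of Mybpc1 was 1913 TPM.

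The 42-base exon, exon 3 of 29 in Mybpc1-202, is coding and a multiple of 3 long, so its use adds codons without moving the frame. Of the TPM of the 2 full-length models that span it, 74.9% and 73.3% included it in pups 1 and 2 (74.1% ± 1.12, SD, n = 2). The 59-base exon, exon 27 of 29 in Mybpc1-201, is coding and not a multiple of 3, so the models differ in frame after it. It was included in 25.03% and 26.58% of the TPM of the protein-coding models that span it (25.8% ± 1.09). The retained intron model Mybpc1-203 also spans and skips the 59-base exon, and is left out of this share. In the annotation the 42-base exon is held by Mybpc1-202 alone and the 59-base exon by Mybpc1-201 alone, so transcripts with both or with neither could not be told apart from mixtures of these models. The 54-base exon is held by the partial model Mybpc1-206 alone, as exon 9 of 14. It took 12.6% ± 0.362 of the TPM of the protein-coding models across it, but 6.22% and 6.50% of their counts in pups 1 and 2. By either measure the models that skip it held the larger share.

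**Figure D2:**
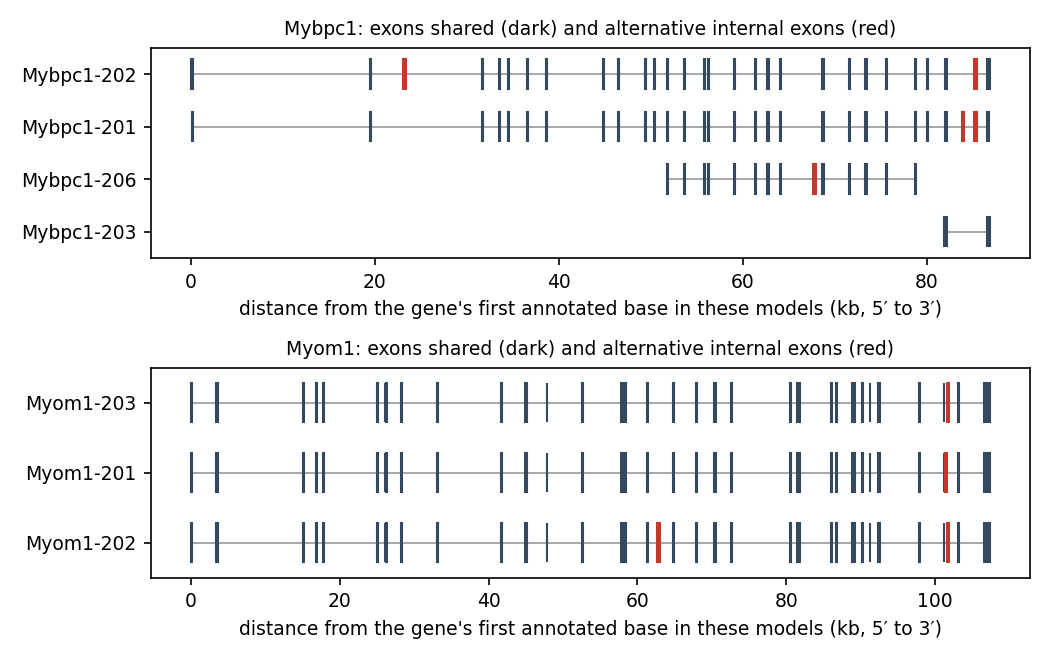
Exons of the Mybpc1 models with at least 5% of the gene's TPM and of the 3 Myom1 models, by distance in kb from the 5′ end of each gene's models; exons are to scale in position and drawn wider than their length where they would not be seen. Exons shared by the models that span them are dark and alternative internal exons are red, among them the 42-base exon of Mybpc1-202 near the left, the 54-base exon of Mybpc1-206 and the 294-base exon of Myom1-202.

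Mybpc2 (ENSMUSG00000038670.9, chromosome 7, 44501699 to 44524656, minus strand), the fast skeletal form, stood at 215 TPM in pup 1 and 273 TPM in pup 2, a mean of 244 ± 41.4. The tables hold 1 model of the gene, Mybpc2-201, with 22616 and 27221 counts. The slow form exceeded the fast form by 3.31 in pup 1 and 3.08 in pup 2 on the log2(TPM + 0.1) scale (3.19 ± 0.16, SD, n = 2). Mybpc2 therefore held 9.16% and 10.6% of the TPM of the family.

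Mybpc3 (ENSMUSG00000002100.11, chromosome 2, 91118144 to 91136516, plus strand), the cardiac form in which variants are a known cause of hypertrophic cardiomyopathy, had 35 counts in pup 1 and 50 in pup 2. These gave 0.29 and 0.44 TPM, and 0.0124% and 0.0171% of the family's TPM. The deposited intervals of 0.213 to 0.407 TPM and 0.333 to 0.576 TPM overlapped. The log2 ratio of Mybpc1 to Mybpc3 was 12.24 ± 0.25, which depends on the 0.1 TPM added to each gene.

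RNA of myosin-binding protein H was abundant and that of its relative was not. Mybph (ENSMUSG00000042451.8, chromosome 1, 134193448 to 134201232, plus strand) stood at 215 and 257 TPM in pups 1 and 2 (236 ± 29.9), from 11106 and 12581 counts. Mybph and Mybpc2 differed by a log2 ratio of 0.04 ± 0.06, less than the spread between the pups. Mybph-201, of 1828 nt, took 99.64% and 99.46% of the gene's TPM. Of the 50-base windows of that model, 26.6% are shared with transcripts of Adora1, an adenosine receptor gene on the opposite strand, which had 164 and 121 counts; whether the counting used strand is not stated. Mybphl (ENSMUSG00000068745.5, chromosome 3, 108364911 to 108380057, plus strand), known from the atria and conduction system of the heart, had 10 counts in pup 1 and 8 in pup 2. These are 0.28 and 0.24 TPM, with overlapping deposited intervals of 0.135 to 0.490 and 0.106 to 0.444 TPM. Its transcripts share 3.42% of their windows with Gm12522 on the opposite strand, which had 6 and 10 counts. The log2 ratio of Mybph to Mybphl was 9.35 ± 0.30.

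Markers of heart muscle were low beside the low counts of Mybpc3 and Mybphl. Of 12 heart genes listed for the purpose, 3 were above 1 TPM, and their summed level was 15.3 TPM in pup 1 and 13.2 TPM in pup 2. Bmp10, a growth factor of the heart's trabeculae and atria, had 0 counts in both pups, which allows up to 3 counts per library. Hcn4, the pacemaker channel, and Nkx2-5, a cardiac transcription factor, had 0 counts in 1 pup each. The 3 above 1 TPM were Gja5, a gap junction gene also expressed in arterial endothelium, at 8.26 and 6.03 TPM, Tnni3, cardiac troponin I, at 2.99 and 2.64 TPM, and Myh6, the alpha cardiac myosin heavy chain, at 2.30 and 2.45 TPM. The source of the Mybpc3 and Mybphl counts was not tested.

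Among the myomesins Myom2 led, Myom1 came next and Myom3 was minor. Myom2 (ENSMUSG00000031461.4, chromosome 8, 15057653 to 15133541, plus strand) encodes M-protein, the myomesin of fast fibres. It stood at 208 TPM in pup 1 and 261 TPM in pup 2 (234 ± 37.8), from 27860 and 32921 counts. Myom1 (ENSMUSG00000024049.10, chromosome 17, 71002633 to 71126856, plus strand) encodes myomesin 1, which all striated muscle carries. It stood at 105 and 118 TPM (112 ± 8.66), from 16428 and 17347 counts. The pups' values of the 2 genes did not overlap, and the log2 ratio of Myom1 to Myom2 was −1.06 ± 0.12. Myom3 (ENSMUSG00000037139.11, chromosome 4, 135759715 to 135815564, plus strand), known from slow and intermediate fibres, stood at 15.5 TPM in pup 1 and 13.9 TPM in pup 2 (14.7 ± 1.16), from 1989 and 1643 counts. It was the only myomesin with a lower value in pup 2, and its deposited intervals of 14.5 to 16.2 and 12.9 to 14.5 TPM just overlapped. Of the summed myomesin TPM, Myom2 held 63.2% and 66.5%, Myom1 32.1% and 30.0%, and Myom3 4.73% and 3.54%.

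The sarcomere and partner genes nearest in level differed between the myomesins. Nearest to Myom2 were Myl3, the slow ventricular light chain, at 228 ± 46.0 TPM, and Sqstm1, the autophagy receptor p62, at 243 ± 6.21 TPM. Nearest to Myom1 were the slow myosin heavy chain Myh7 at 114 ± 4.00 TPM and Lmod3, a thin filament nucleator, at 93.7 ± 10.7 TPM. Nearest to Myom3 was the fast heavy chain Myh4 at 15.4 ± 2.65 TPM.

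The Myom1 RNA was nearly all of the form without the 294-base exon. The exon is coding, a multiple of 3 long, exon 18 of 38 in Myom1-202, and is taken here as that of the embryonic (EH) form, known from embryonic heart; the annotation does not name it. Myom1-202, of 5602 nt, and Myom1-203, of 5308 nt, differ in the files' models by 294 nt. Myom1-202 held 124 and 152 counts in pups 1 and 2, with posterior SDs of 38.3 and 40.9 counts in the deposited tables. The share of TPM with the exon was 0.712% and 0.833%, a mean of 0.772% ± 0.0857 (SD, n = 2). The deposited intervals put Myom1-202 at 0.358% to 1.23% of the gene in pup 1 and 0.456% to 1.36% in pup 2, and these overlap. GENCODE M21 has 9 Myom1 models and the files 3, so forms annotated later were not measured on their own. The 2 exons of 23 bases replace each other near the 3′ end and match at 6 of 23 positions, and, being of equal length, leave the frame of the shared exons after them the same. The downstream exon, held by Myom1-202 and Myom1-203, took 95.7% and 95.4% of the TPM, and the upstream exon, held by Myom1-201, took 4.29% and 4.63%.

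Myom2 and Myom3 each had a leading protein-coding model and short or partial models whose weight depended on the measure. Myom2-201, of 5075 nt, took 87.53% and 86.87% of the TPM in pups 1 and 2, and 97.0% and 96.9% of the counts. Myom2-205, a 744-nt model with no coding annotation, took 9.38% and 9.26% of the TPM but 1.35% and 1.34% of the counts. Myom3-201, of 5575 nt, took 60.47% and 57.45% of the TPM, and 77.4% and 75.3% of the counts. The rest of Myom3 was almost all Myom3-203, a 2551-nt retained intron model, at 39.53% and 42.01% of the TPM and 22.6% and 24.6% of the counts. Protein-coding models alone put Myom3 at 8.69 TPM, 1.69-fold below the level over all its models.

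**Figure D3:**
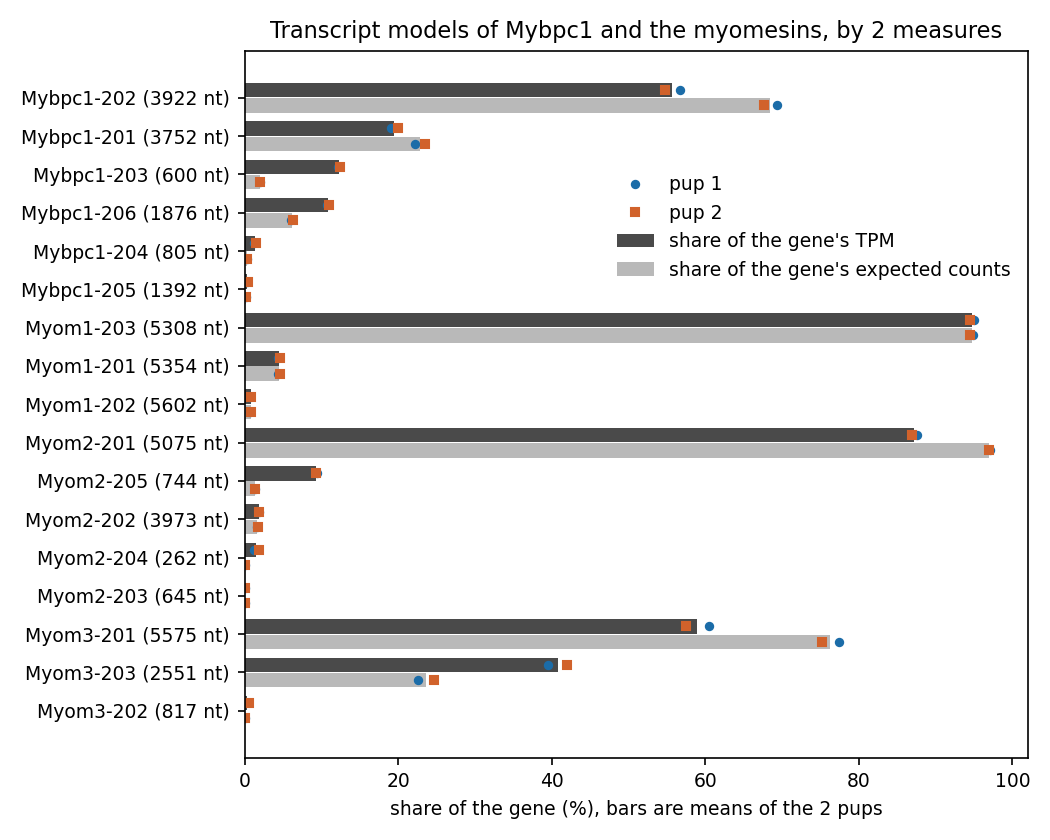
Share of each model in its gene for Mybpc1 and the 3 myomesins, as a percent of the gene's TPM (dark bars) and of its expected counts (light bars); bars are means of the 2 pups, with circles for pup 1 and squares for pup 2. Myom1-203 stays near 95% by either measure, while short models such as Mybpc1-203 and Myom2-205 take a larger share of TPM than of counts.

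Set against the filament they decorate, both families were less abundant than the myosin heavy chains in RNA. The 6 sarcomeric heavy chain genes Myh1, Myh2, Myh3, Myh4, Myh7 and Myh8 summed to 4557 TPM in pup 1 and 5829 TPM in pup 2 (5193 ± 899), almost all from perinatal Myh8 at 3908 and 5103 TPM and embryonic Myh3 at 490.4 and 566 TPM. The 3 myosin-binding protein C genes summed to 2342 and 2576 TPM (2459 ± 166) and lay 2.10-fold below the heavy chains (log2 ratio −1.07 ± 0.15). The 3 myomesins summed to 329 and 393 TPM (361 ± 45.3) and lay 14.4-fold below the heavy chains (log2 ratio −3.84 ± 0.07). The myomesins were 6.84-fold below the myosin-binding protein C genes (log2 ratio −2.77 ± 0.08), and these 3 differences exceed 3 SD in both pups. Ttn, the giant spring and template titin, was at 986 and 1243 TPM. The myosin-binding protein C genes exceeded it by 1.15 ± 0.14 and the myomesins lay below it by a log2 ratio of −1.62 ± 0.05. In counts without length correction, the former ratio falls to −0.017, with Ttn at 199021 and 260512 counts in pups 1 and 2. The TPM of Ttn depends on the lengths of the models that its counts were given to, which were not examined. Neither ratio to Ttn can therefore be read as a ratio of full-length transcripts.

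Other partners of these genes were all present. All 15 genes of a list of M-band and thick filament partners were above 1 TPM. Ckm, muscle creatine kinase, which docks at the M-band, was highest at 11680 and 12476 TPM. The MuRF ubiquitin ligases, which bind titin or other sarcomere proteins, Trim63, Trim55 and Trim54 were at 48.8 ± 4.45, 48.4 ± 1.87 and 184 ± 6.21 TPM. Obsl1, a cytoskeletal linker of the M-band, was at 62.4 and 51.9 TPM, Cmya5, or myospryn, at 18.7 and 24.0 TPM, Fhl2, a LIM-domain protein, at 30.8 and 27.8 TPM, and Lrrc39, a myosin-binding M-band protein, at 31.9 and 31.8 TPM. The autophagy receptors Nbr1 and Sqstm1, which take part in signalling from titin's kinase domain, were at 42.0 and 41.9, and at 239 and 248 TPM. The myosin chaperones and their partner methyltransferase, Unc45b, Hsp90aa1 and Smyd1, were at 92.6 ± 4.61, 145 ± 5.92 and 45.3 ± 2.77 TPM.

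The slow-over-fast order of Mybpc1 and Mybpc2 was set beside 10 other pairs of slow or cardiac over fast or perinatal genes. In 9 of the 10 pairs the second gene was higher in both pups, with log2 ratios from −7.09 (Atp2a2 over Atp2a1, the sarcoplasmic calcium pumps) to −0.87 (Casq2 over Casq1, the calcium-storage calsequestrins). The troponin T pair Tnnt1 over Tnnt3 was at −3.66 ± 0.33 and the troponin I pair Tnni1 over Tnni2 at −3.74 ± 0.14. Only Myh7 over Myh4, both minor heavy chains at this age, was positive besides the Mybpc1 pair, at 2.90 ± 0.30. In all 11 pairs the ratio was lower in pup 2 than in pup 1, by as little as 0.01 for the Casq2 pair; this count was made after the values were seen, and 2 of the pairs share Myh7.

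**Figure D4:**
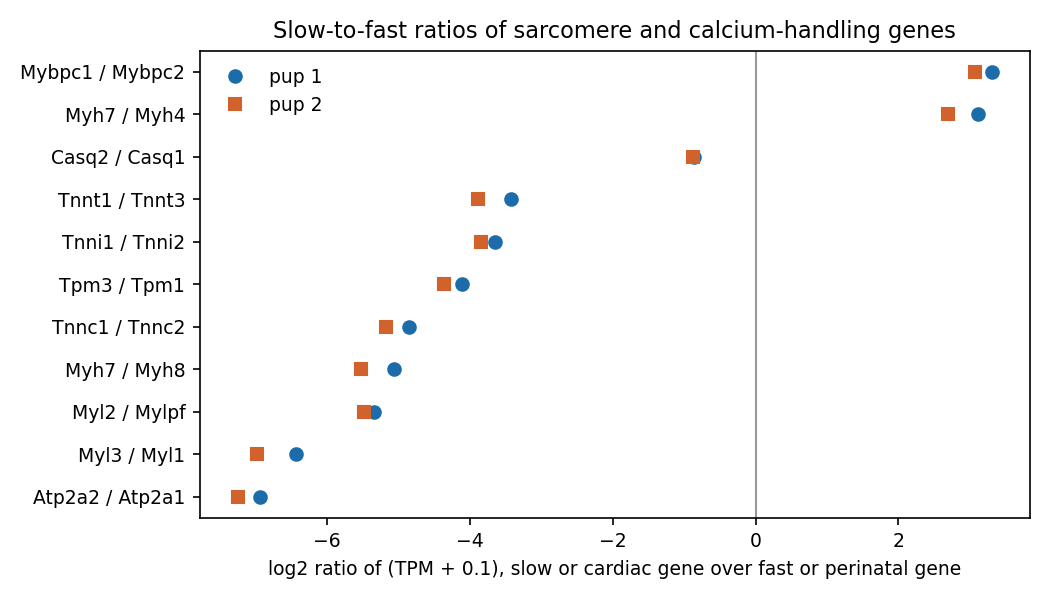
Log2 ratio of (TPM + 0.1) for 11 pairs of a slow or cardiac gene over a fast or perinatal gene, with a circle for pup 1 and a square for pup 2. Mybpc1 over Mybpc2 and Myh7 over Myh4 lie to the right of 0, and the other 9 pairs lie to the left.

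None of the 7 genes tested between the pups was 2-fold apart, and most had the higher value in pup 2. Ratios were taken from expected counts with TMM scaling over 17020 genes with at least 10 mean counts, and a gene is said to differ when they are at least 2-fold apart. Of the 8 genes, 7 passed this filter, Mybphl missing it with 9 mean counts. The counting interval of Mybphl, from −1.64 to 1.40, includes 2-fold either way. Of the 7, 0 were 2-fold apart, where 6.31% of all genes tested were, so with so few genes this is near the share over all genes. Log2 ratios of pup 2 over pup 1 were 0.49 for Mybpc2, 0.47 for Myom2, 0.40 for Mybph, 0.30 for Myom1 and 0.25 for Mybpc1, with narrow 95% counting intervals (exact Clopper-Pearson) such as 0.47 to 0.52 for Mybpc2. Mybpc3 was at 0.71, with an interval from 0.09 to 1.41 that its few counts leave wide, and Myom3 at −0.05, with −0.15 to 0.04. The median of the 7 was 0.40, and that of all genes was near 0, with quartiles of −0.21 and 0.18. The partners list had a median of 0.21, with 11 of 15 genes higher in pup 2, and the 9 myosin heavy chains with a ratio had a median of 0.35 and were all higher there. A second, sarcomere scaling used the counts of the listed partner, heavy chain and other sarcomere genes as library size. It shifts the median of all genes to −0.28. With it Mybpc1 turned to −0.04, Myom1 to 0.02 and Myom3 to −0.33, and Mybpc3, Mybpc2, Myom2 and Mybph were at 0.44, 0.21, 0.18 and 0.12. Of all genes 2-fold apart, 241 were higher in pup 2 and 833 in pup 1, and with sarcomere scaling 125 and 1190.

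**Figure D5:**
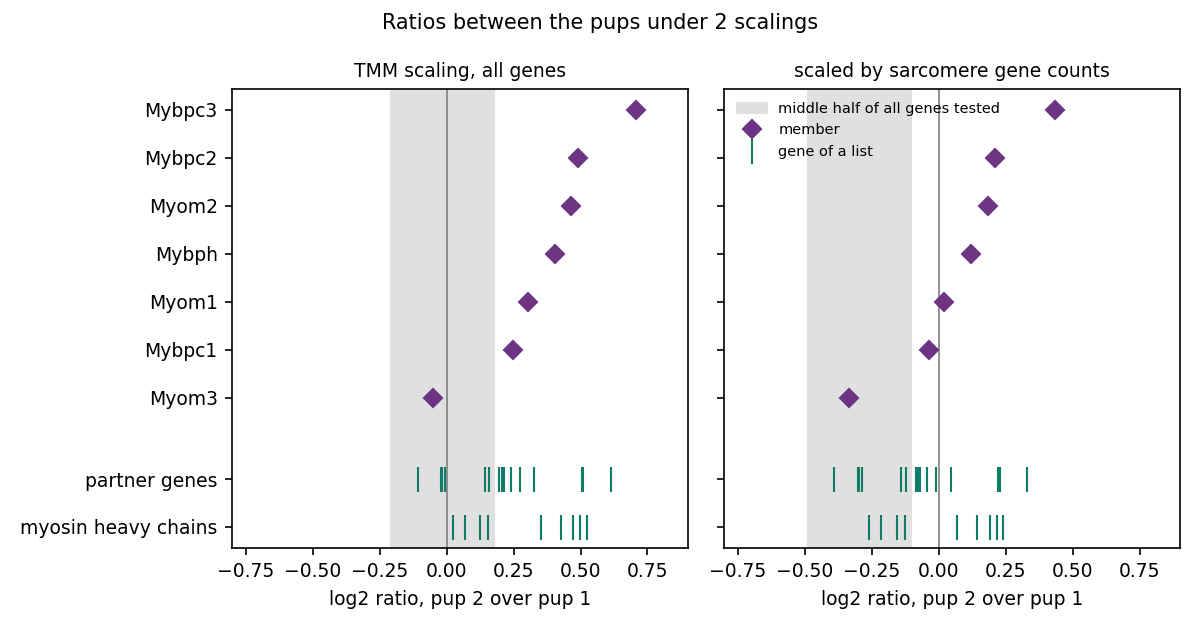
Log2 ratio of pup 2 over pup 1 for the 7 genes that passed the count filter (diamonds) and for the partner and myosin heavy chain genes (ticks), scaled by TMM (left) and by sarcomere gene counts (right); the grey band spans the quartiles of all genes tested. On the left all diamonds but that of Myom3 lie to the right of 0, and on the right the diamonds of Mybpc1, Myom1 and Myom3 lie at −0.04, 0.02 and −0.33. The genes drawn as ticks are among those that set the scale on the right, so their place near 0 there is largely fixed by the scaling.

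The pups also differed in genes of other tissues, which stand beside these ratios. The summed level of 10 epidermis markers was 660.3 TPM in pup 1 and 23.5 TPM in pup 2, that of 10 adipocyte markers 8301 and 2311 TPM, and that of 10 cartilage markers 60.4 and 4.50 TPM, with the cartilage gene Snorc at 0 counts in pup 2. Of these lists 9, 9 and 10 genes were at least 2-fold higher in pup 1. Fibroblast markers summed to 9780 and 6968 TPM, endothelial markers to 345 and 317 TPM, and leukocyte markers to 1432 and 839 TPM. The mast cell genes Cma1, Cpa3 and Mcpt4 gave 567, 485 and 151 TPM of the leukocyte sum in pup 1. In pup 2 they gave 315, 261 and 69.2 TPM. Smooth muscle markers summed to 2359 and 2223 TPM, of which Des, the desmin gene that skeletal muscle also expresses strongly, gave 1981 and 1875 TPM and the other 9 genes 378 and 348 TPM. The part of these genes in the ratios of the myosin-binding proteins and myomesins was not tested. As for the tissue itself, all 37 other sarcomere genes listed were above 1 TPM, with a summed level of 167054 TPM in pup 1 and 176821 TPM in pup 2. The tables summed to 40455042 expected counts in pup 1 and 37151129 in pup 2, and neither batch nor date is given in the labels.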

How the data were processed

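Total RNA of skeletal muscle was sequenced from 2 newborn pups; per the labels' protocols extraction used mirVana reagents, the input was 10 ng per library, and spike-in RNAs were added. The authors deposited gene and transcript tables on mm10 and GENCODE M4, per the accompanying files; names of the aligner and quantifier were not given in the sources used. Per the file headers, the deposited values are expected counts, TPM, each transcript's percent of its gene's TPM, and interval bounds and posterior SDs, treated as a score. The interval level is not stated and the bounds centre on the posterior mean TPM.

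Names, positions, exons and sequences came from the GENCODE M21 release on that build, joined on the unversioned ID (42462 of 43346 genes). Levels are means ± SD (n = 2); pair ratios add 0.1 TPM to each gene. For the ratio between pups, edgeR 4.0.16 under R 4.3.3 computed TMM-scaled log2 CPM (prior count 2) from rounded expected counts over genes of at least 10 mean counts. This calculation was tested on simulated data. Each pup gave 1 library, so edgeR has no residual degrees of freedom and no p-value was computed. Depth was 40455042 and 37151129 counts, of which rows that are no gene, left out, held 0.00109% and 0.00120%. Intervals at 95% and the limit of 3 counts for a count of 0 cover counting error only, as the reads carry no molecular identifiers. Alternatives were DESeq2 1.42.0 size factors, library size, sarcomere counts as library size, other filters, pseudocounts, posterior means, protein-coding models, counts without length correction and each pup left out. Named are all members, their models with at least 5% of TPM or counts, the exon-carrying model of Myom1, the partners and heavy chains, the pairs and the 2 nearest genes in level, except 1 gene that is not reported here; Bmp10, Hcn4, Nkx2-5 and Snorc are marker genes at 0 counts, and Gja5, Tnni3, Myh6 and the overlapping genes Adora1 and Gm12522 were named after their values were seen. The members and lists were chosen with earlier results of these data known. The software was Python 3.11.15 with scipy 1.17.1, pandas 2.3.3 and matplotlib 3.10.9.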

Additional observations from a re-analysis of the deposited data

How the results depend on the processing

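Of 188 alternative values over 48 results, 130 stayed within their error (the SD between pups or the counting interval) or close in number, 57 moved and 1 that lay beyond its error turned its direction. That turn came with expected counts and no length correction, where summed Mybpc1 to Mybpc3 over Ttn became −0.017. Besides it, 2 values changed sign: the pup ratio of Mybpc1 went from 0.25 to −0.04 with sarcomere scaling, and Mybpc2 over Mybph went from 0.04 to −0.0002 without pup 2. With n = 2, a value without either pup lies within the SD by construction. Such values, the last sign change among them, are not counted among the 188 and say nothing about stability. The ratio between the pups has no value without a pup. In counts without length correction the log2 ratios became 3.01 (Mybpc1 over Mybpc2), 1.07 (Mybpc2 over Mybph), 10.35 (Mybph over Mybphl), 4.08 (Mybpc1 over Mybph), −0.84 (Myom1 over Myom2) and 3.22 (Myom1 over Myom3). The summed Mybpc genes became −1.99 over the heavy chains, and the summed myomesins −4.19 over the heavy chains, −2.22 over Ttn and −2.20 over the Mybpc genes. These follow from dropping the division by length.

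With protein-coding models alone, Mybpc1 stood at 1913 TPM and Myom3 at 8.69 TPM, and the log2 ratios became 2.98 (Mybpc1 over Mybpc2), 3.02 (Mybpc1 over Mybph), −0.87 (Myom1 over Myom2), 3.67 (Myom1 over Myom3) and 4.53 (Myom2 over Myom3). The Mybpc sums became −1.25 over the heavy chains and 0.98 over Ttn, and the myomesin sums −3.98 and −1.75. A pseudocount of 1 or 0.01 TPM gave 10.67 or 12.56 for Mybpc1 over Mybpc3 and 7.55 or 9.77 for Mybph over Mybphl. The posterior mean of Mybphl was 0.29 TPM. As shares of counts, Mybpc1-202 took 68.5%, Mybph-201 99.4%, Myom2-201 97.0% and Myom3-201 76.3%. Genes 2-fold apart between the pups numbered 1074, against 296 with at least 100 mean counts and 2694 with no filter beyond 1 count. Depth limits Mybpc3, Mybphl and the 294-base exon of Myom1.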

Other observations

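The 35 and 50 counts of Mybpc3 were given to different models in the pups. The tables put 100% of its TPM in Mybpc3-203 in pup 1 and 99.99% in Mybpc3-201 in pup 2. The posterior shares were spread over the models instead, at 51.7% for Mybpc3-203, 26.4% for Mybpc3-201 and 21.9% for Mybpc3-202 in pup 1, and 40.1%, 33.5% and 26.5% in pup 2. These models have lengths of 4163, 4154 and 4134 nt, and the assignment is not resolved at this depth.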
